A study of Mus musculus with 24 samples.

Results

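The genes of glycolysis and of the hypoxia response were followed through LPS-stimulated mouse dendritic cells that carry BRAF-V600E, the kinase mutation of Langerhans cell histiocytosis. The set was 36 genes chosen by name from their known roles, at a time when earlier results of these data were known. All 36 were found among the 54309 gene models of the deposited raw count table. They comprised 2 glucose transporters, 7 enzymes from hexose phosphorylation to fructose bisphosphate, 2 regulators of phosphofructokinase, 8 genes of lower glycolysis, 4 genes of lactate formation and export, 2 pyruvate dehydrogenase kinases, 3 genes of the HIF oxygen sensor, 7 HIF targets outside glycolysis, and Mif.

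Bone marrow was grown for 7 days in medium rich in GM-CSF, which gives bone marrow-derived dendritic cells (BMDC). The cells were wild type (WT) or came from the LCH genotype, called mutant in the column names; the series title gives its change as BRAF-V600E, while the allele, the promoter or Cre line that drives it and the age of the mice are not given in the sources used here. Cells of both genotypes had a BRAF-V600E inhibitor for 1 hour or none, and every culture, controls included, then had LPS for 3 hours at 100 ug/mL (as labelled; the unit was not checked) and a cycloheximide pulse at 100 ug/mL. RNA was taken from whole cells (total RNA) and from pooled gradient fractions with more than 2 polysomes (polysome RNA), which makes 8 groups of 3 libraries. The columns name the libraries by a pool letter, A, BD and C for WT and E, F and G for LCH. Polysome columns read GH where total RNA columns read G, and GH was taken as pool G, which no source states. How many animals a pool holds is not given either.

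Glycolysis turns glucose into pyruvate with a small, fast yield of ATP, and lactate dehydrogenase then regenerates NAD+ so that the flux can go on. HIF-1 is a transcription factor whose alpha subunit is hydroxylated and destroyed when oxygen is present; when it is stable it raises glucose transporters, most glycolytic enzymes and lactate export. Dendritic cells and macrophages raise glycolysis within hours of LPS, and myeloid HIF-1 alpha also accumulates after LPS in normal oxygen. All cells here had LPS, so the response to LPS itself was not measured.

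Levels are given as CPM, the count scaled to a common library size. Total RNA libraries held 19046640 to 39792221 counts and every one of them had a count for each of the 36 genes. Dusp6, a phosphatase that ERK signalling induces, served as a check of the genotype and inhibitor labels: a log2 change of 2.92 ± 0.24 SE (adjusted p = 1.9e-05) in LCH against WT, and a log2 change of -2.45 ± 0.23 SE (adjusted p = 0.0012) with the inhibitor in LCH (edgeR's quasi-likelihood test with Benjamini-Hochberg adjustment over all genes, as for every adjusted p here). Libraries of LCH pool G stood apart, since 6 satellite-type gene models took 24.7% and 25% of counts in its total and polysome RNA with inhibitor, and 1.82% and 0.395% without. Markers of other myeloid cells differed between the genotypes. Without inhibitor, 14.9% of all genes tested were lower in LCH and 14.8% higher. Of 12 neutrophil markers 10 were lower (657 to 962 CPM summed over the list, against 1790 to 3650 in WT). Of 8 eosinophil markers 6 were lower and 1 higher (40.8 to 108 against 373 to 763). Of 8 mast cell and basophil markers 5 were lower and 1 higher (172 to 225 against 222 to 339); of 14 dendritic cell markers 4 were lower and 2 higher (16400 to 20700 against 10300 to 17800). Of 12 macrophage and monocyte markers 11 were tested, 3 of them lower and 2 higher (2530 to 3030 against 2600 to 3630). None of the markers of these 5 cell types was at 0 in every library of a total RNA group, and the part of cell makeup in the genotype differences below was not tested; in bulk RNA, fewer cells of a type and less RNA per cell cannot be told apart.

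The short promoter windows of the genes hold the core letters that HIF binds, so a few are shown before the values. RefSeq (GRCm38.p6) gave a window of 250 bases before to 50 after the start for 33 of the 36 genes, with 45 windows in all. The letters searched were ACGTG and GCGTG on both strands, where a palindromic CACGTG counts once on each strand. A match was found for 30 of the 33 genes (90.9%), against 66.6% of the 10029 genes tested in total RNA that have a window and 46.7% of all 27025 genes with one. Member windows had a median GC content of 62%, against 60.3% for the windows of the genes tested. The 5 windows below come from the steps that the values turn on, and are written 5′ to 3′ on the strand of the gene, with matches in capitals; Slc2a1, Pgk1 and Slc16a3 span entry, the first ATP-yielding step and export, Ldha has the most matches, and Tpi1 has none.
Slc2a1 chr4:119108495-119108794 (+): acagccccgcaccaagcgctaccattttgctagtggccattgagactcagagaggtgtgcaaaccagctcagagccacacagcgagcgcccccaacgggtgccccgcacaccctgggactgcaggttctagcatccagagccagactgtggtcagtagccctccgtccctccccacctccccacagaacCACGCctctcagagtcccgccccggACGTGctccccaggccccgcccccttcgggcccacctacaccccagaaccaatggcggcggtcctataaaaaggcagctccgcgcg
Pgk1 chrX:106186850-106187149 (+): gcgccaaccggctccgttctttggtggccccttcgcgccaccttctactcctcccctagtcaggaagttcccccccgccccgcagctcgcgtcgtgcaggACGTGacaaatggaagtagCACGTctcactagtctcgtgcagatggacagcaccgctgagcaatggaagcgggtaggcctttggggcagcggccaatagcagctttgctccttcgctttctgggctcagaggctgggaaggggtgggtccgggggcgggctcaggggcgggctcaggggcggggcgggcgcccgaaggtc
Ldha chr7:46845554-46845853 (+): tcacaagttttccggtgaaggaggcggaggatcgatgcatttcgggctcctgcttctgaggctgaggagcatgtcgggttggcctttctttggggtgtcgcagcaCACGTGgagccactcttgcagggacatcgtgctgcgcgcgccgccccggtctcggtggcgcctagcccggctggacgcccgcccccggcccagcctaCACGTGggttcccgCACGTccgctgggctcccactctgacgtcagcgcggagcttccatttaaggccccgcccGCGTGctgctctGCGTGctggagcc
Slc16a3 chr11:120948817-120949116 (+): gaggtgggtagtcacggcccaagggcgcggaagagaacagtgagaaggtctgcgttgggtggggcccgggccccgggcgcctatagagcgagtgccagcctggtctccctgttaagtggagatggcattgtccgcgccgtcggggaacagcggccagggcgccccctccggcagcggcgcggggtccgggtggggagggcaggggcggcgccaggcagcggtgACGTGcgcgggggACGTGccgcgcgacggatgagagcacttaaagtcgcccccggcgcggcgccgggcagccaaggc
Tpi1 chr6:124814109-124814408 (-): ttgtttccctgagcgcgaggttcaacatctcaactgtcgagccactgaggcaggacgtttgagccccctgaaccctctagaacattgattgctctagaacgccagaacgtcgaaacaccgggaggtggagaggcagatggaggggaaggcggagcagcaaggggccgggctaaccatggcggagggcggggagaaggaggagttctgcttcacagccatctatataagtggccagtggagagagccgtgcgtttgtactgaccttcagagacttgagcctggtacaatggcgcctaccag
The matches did not sort with the expression calls given next: 8 of 9 genes higher in LCH, 3 of 4 lower and 19 of 20 without a call had one. A match is a run of letters and not a binding site, and no binding was measured.

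The first comparison asked how these transcripts differed between the genotypes, in total RNA without inhibitor. Each genotype had its own pools, so genotype and pool cannot be told apart. Of the 36 genes, all tested, 9 rose and 6 fell in LCH, which is 25% and 16.7% of them; over the 13375 genes tested 14.8% rose and 14.9% fell. The median log2 fold change of the set was 0.17, against 0.02 over all genes. Genes higher in LCH lay at glucose entry (Slc2a1), in lower glycolysis (Tpi1, Pgk1, Pkm), at lactate export (Slc16a3), and among HIF-related genes (Egln3, Vegfa, P4ha2) and Mif. Genes lower in LCH were Pfkfb3, Eno2, Ldhb, Pdk3, Bnip3l and Ndrg1, so the called members did not all move one way. With both pool G libraries left out, 6 rose and 7 fell, with Pkm, Slc16a3 and Egln3 no longer called. The share of all genes called in that fit is not given here. Without leaving any out, none of the 7 enzymes from hexokinase to phosphofructokinase passed the test (unadjusted p under 0.05 for Hk2 and Pfkp). Whether libraries overlapped is given below as description only, since the share of all genes without overlap was not counted.

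**Figure D1:**
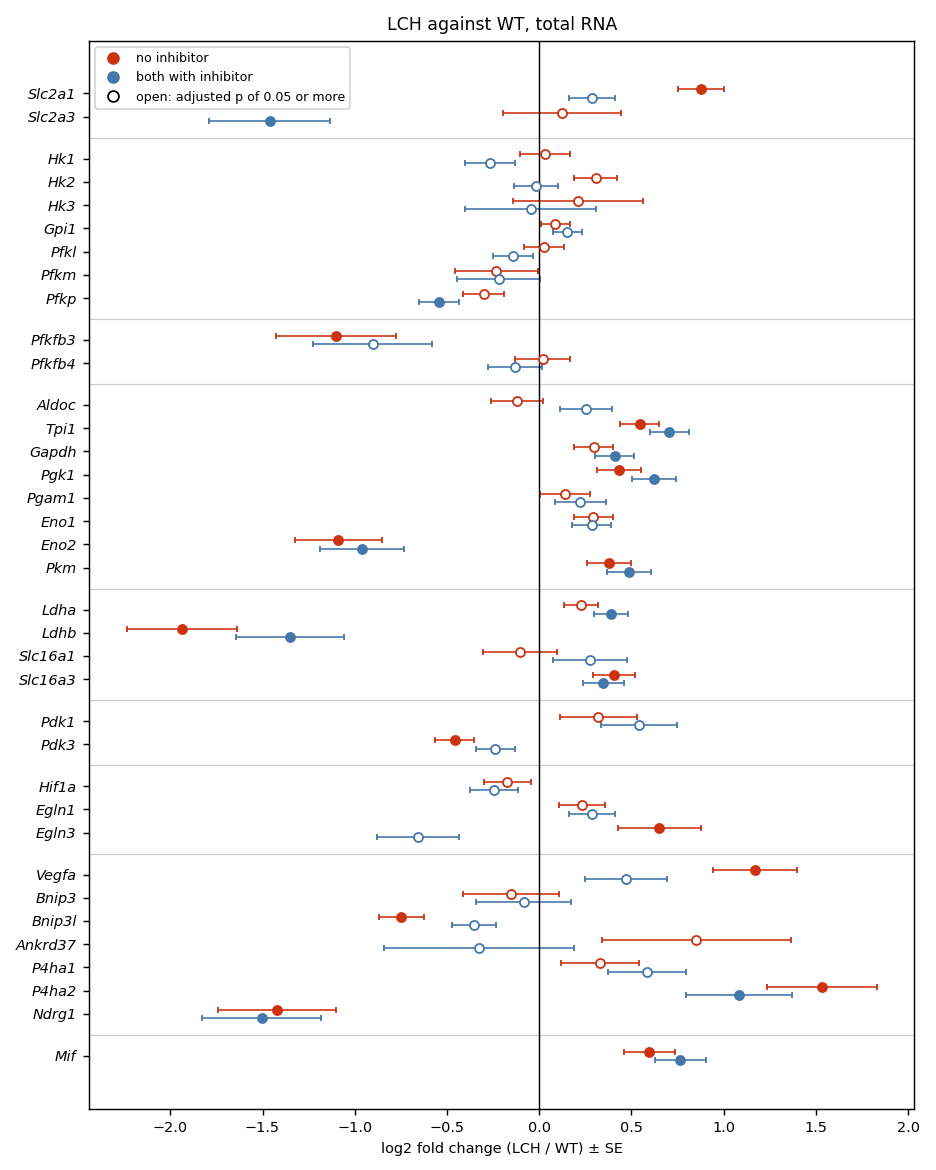
Log2 fold change (LCH over WT) with its standard error for each of the 36 genes in total RNA, without inhibitor in red and with inhibitor in both genotypes in blue, grouped by role between grey lines; filled points passed an adjusted p of 0.05. Without inhibitor 9 genes lie to the right and 6 to the left as filled points, and with inhibitor 8 and 5.

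Slc2a1 encodes GLUT1, the main glucose transporter of activated myeloid cells, and the deposited table places it on the plus strand of chromosome 4 from 118965908 to 118995180, in coordinates whose build it does not name. It stood at 157, 183 and 164 CPM, after TMM scaling, in pools E, F and G of LCH, against 80.9, 96.3 and 97.3 in pools A, BD and C of WT. Every LCH library was above every WT library, with a log2 change of 0.88 ± 0.12 SE (adjusted p = 5e-04). Slc2a3, the higher-affinity transporter GLUT3, was low throughout, at 16.2, 8.54 and 8.87 CPM against 7.54, 12.1 and 11.2, and the groups overlapped (log2 fold change 0.12, SE 0.32, adjusted p = 0.8).

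Among the upper enzymes, Hk2, the inducible hexokinase, stood at 275, 261 and 319 CPM in LCH and 214, 253 and 225 in WT. The libraries did not overlap, but the difference missed the threshold (log2 fold change 0.31, SE 0.12, adjusted p = 0.072). Hk1 and Hk3, the other hexokinases measured, had values of 0.03 (SE 0.14) and 0.21 (SE 0.35), and Gpi1, which isomerises glucose 6-phosphate, 0.09 (SE 0.08). Pfkp, the platelet-type phosphofructokinase, stood at 433, 407 and 511 CPM in LCH and 565, 573 and 526 in WT, lower in every LCH library and short of the threshold (log2 fold change -0.30, SE 0.11, adjusted p = 0.059). The liver-type and muscle-type subunits Pfkl and Pfkm had values of 0.03 (SE 0.11) and -0.23 (SE 0.23).

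Pfkfb3 makes fructose 2,6-bisphosphate, the strongest activator of phosphofructokinase. It stood at 31.7, 48.6 and 70.3 CPM in LCH and 99.9, 114 and 110.2 in WT. All LCH libraries were below all WT libraries, though they spread widely among themselves, with a log2 change of -1.10 ± 0.33 SE (adjusted p = 0.027). The fall kept its call without 2 of the 6 single libraries only, LCH pool G and WT pool A. Pfkfb4, a second enzyme of the kind, had 0.02 (SE 0.15).

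Of the 8 genes of lower glycolysis 3 rose, 1 fell and 4 did not pass. Tpi1, which interconverts the triose phosphates, stood at 297, 265 and 281 CPM in LCH and 168, 208 and 202 in WT, with a log2 change of 0.55 ± 0.10 SE (adjusted p = 0.0029). Pgk1, which makes the first ATP of the payoff phase, stood at 655, 627 and 702 CPM against 419, 553 and 499.9, with a log2 change of 0.43 ± 0.12 SE (adjusted p = 0.018). Pkm, pyruvate kinase, stood at 1629, 1432 and 1514 CPM against 1058, 1281 and 1185, with a log2 change of 0.38 ± 0.12 SE (adjusted p = 0.033). In these 3 genes the groups did not overlap. Tpi1 kept its call without any 1 of the 6 libraries, whereas Pgk1 kept it without 2 of them and Pkm without 1, WT pool BD.

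Gapdh, the NADH-yielding dehydrogenase, and Eno1, the main enolase, were also above WT in every LCH library, without passing the test. Gapdh stood at 2699, 2448 and 2454 CPM against 1962, 2085 and 2149 (log2 fold change 0.29, SE 0.11, adjusted p = 0.055). Eno1 stood at 999, 909 and 934 CPM against 722, 830.0 and 767 (log2 fold change 0.29, SE 0.10, adjusted p = 0.055). Pgam1, phosphoglycerate mutase, and the aldolase Aldoc had values of 0.14 (SE 0.14) and -0.12 (SE 0.14). Aldoa, an aldolase gene outside the set, averaged 806 CPM in LCH (754 to 872) and 786 in WT (775 to 799). Eno2, an enolase best known from neurons, went the other way at a few CPM: 2.33, 3.22 and 2.40 against 5.71, 6.27 and 4.93, with a log2 change of -1.09 ± 0.24 SE (adjusted p = 0.0057).

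At the lactate step the genes diverged. Slc16a3 encodes MCT4, the exporter of highly glycolytic cells, and stood at 88.9, 89.6 and 92.7 CPM in LCH and 60.99, 66.01 and 77.4 in WT, with a log2 change of 0.41 ± 0.11 SE (adjusted p = 0.019). The libraries did not overlap; the call held without WT pool C only among the 6 single libraries. Ldha, the pyruvate-reducing subunit, stood at 753, 702 and 758 CPM against 575, 657 and 661, above WT in every library and short of the threshold (log2 fold change 0.23, SE 0.09, adjusted p = 0.087). Ldhb, the subunit that favours lactate oxidation, stood at 3.66, 5.76 and 4.17 CPM against 11.02, 21.2 and 19.9. It showed the largest fall of the 36 genes, a log2 change of -1.94 ± 0.30 SE (adjusted p = 0.00085), kept without any single library. Slc16a1, the transporter MCT1, had -0.11 (SE 0.20).

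Pdk1 and Pdk3 phosphorylate and shut pyruvate dehydrogenase, which keeps pyruvate out of mitochondria. Pdk3 stood at 44.5, 34.7 and 40.7 CPM in LCH against 54.3, 50.5 and 60.04 in WT and fell without overlap, with a log2 change of -0.46 ± 0.11 SE (adjusted p = 0.0079). Pdk1, the classic HIF-1 target of the pair, stood at 16.6, 15.96 and 19.1 CPM against 9.88, 17.8 and 13.8, and the groups overlapped (log2 fold change 0.32, SE 0.21, adjusted p = 0.26).

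Hif1a, which encodes the regulated subunit of HIF-1, stood at 263, 255 and 265 CPM in LCH and 245, 340.2 and 298 in WT. Its mRNA overlapped between the genotypes (log2 fold change -0.17, SE 0.13, adjusted p = 0.34); HIF-1 alpha is regulated mostly as a protein, which was not measured. Of the prolyl hydroxylases that mark it for destruction, Egln3 stood at 6.50, 8.44 and 10.5 CPM against 4.37, 4.89 and 6.93. Egln3 rose on the test although 1 WT library lay above 1 LCH library, with a log2 change of 0.65 ± 0.23 SE (adjusted p = 0.048); the call was lost without any of LCH pools F and G and WT pools A and BD. Egln1 had 0.23 (SE 0.12).

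The 7 HIF targets outside glycolysis split 2 up, 2 down and 3 without a call. Vegfa, the angiogenic growth factor, stood at 19.7, 24.1 and 36.7 CPM in LCH and 12.9, 10.01 and 12.8 in WT, with a log2 change of 1.17 ± 0.23 SE (adjusted p = 0.0032). P4ha2, a collagen prolyl hydroxylase, stood at only 2.52, 3.90 and 3.18 CPM against 0.893, 0.863 and 1.54, with a log2 change of 1.53 ± 0.30 SE (adjusted p = 0.003). Both were higher in every LCH library and kept their calls without any single library, but limma on the authors' rlog values, which shrink low counts, ended the call of P4ha2. Ndrg1, a hypoxia-induced stress gene, stood at 34.3, 41.4 and 50.9 CPM against 143, 81.03 and 116, and the mitophagy receptor Bnip3l at 49.00, 54.7 and 49.8 against 69.9, 97.8 and 89.8. These 2 fell in LCH, with a log2 change of -1.42 ± 0.32 SE (adjusted p = 0.0079) and a log2 change of -0.75 ± 0.12 SE (adjusted p = 0.0011); the pseudogene Bnip3l-ps held 4.66% of the counts shared between it and Bnip3l, and how reads were divided between them is not given. Bnip3, P4ha1 and Ankrd37 had values of -0.15 (SE 0.26), 0.33 (SE 0.21) and 0.85 (SE 0.51).

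Mif encodes a secreted cytokine with tautomerase activity that HIF-1 induces in several cell types. It stood at 112, 89.8 and 108 CPM in LCH and 55.8, 79.1 and 70.4 in WT. The groups did not overlap, with a log2 change of 0.60 ± 0.14 SE (adjusted p = 0.0081), kept without any single library.

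**Figure D2:**
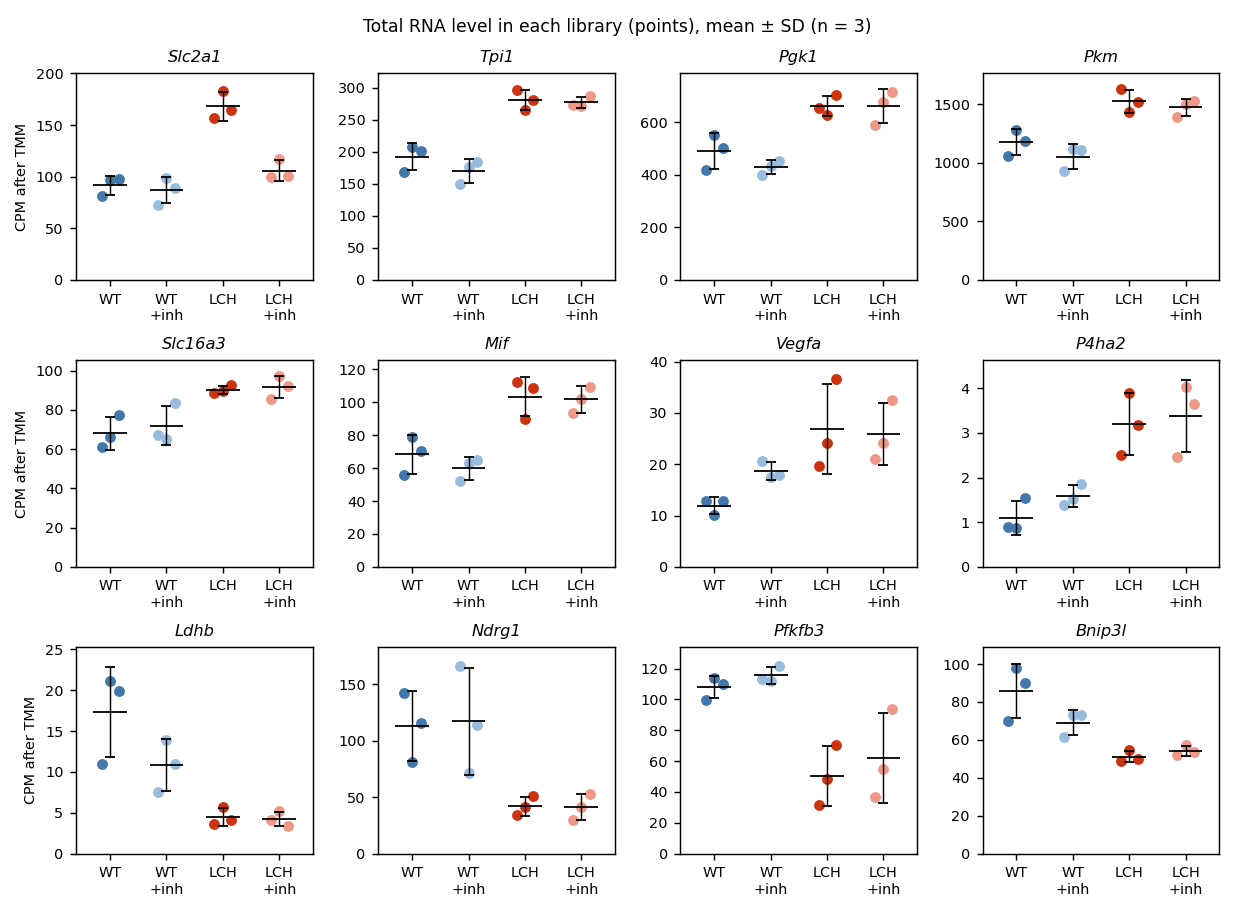
Total RNA level (CPM after TMM, axes from 0) of 12 of the genes in each library, as points with mean and SD (n = 3) for WT and LCH without and with inhibitor. Slc2a1 is at 157 to 183 CPM in LCH without inhibitor and at 117 CPM or below in every library of the other groups, while Ldhb and Ndrg1 are lower in both LCH groups than in both WT groups.

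Genes of neighbouring pathways were counted in the same comparison, where 14.8% of all genes rose and 14.9% fell. Of 16 tested genes of other glycolysis and sugar entry, 4 rose (25%) and 1 fell (6.25%) in LCH: among them Adpgk, the ADP-dependent glucokinase, had 0.58 (SE 0.11, adjusted p = 0.0023) and Bsg, the chaperone of the lactate transporters, 0.43 (SE 0.11, adjusted p = 0.014). Of 8 pentose phosphate genes, 3 fell (37.5%) and none rose, led by Pgd with -0.42 (SE 0.08, adjusted p = 0.0026). Of 16 tested genes of pyruvate use and the TCA cycle, 8 fell (50%) and 1 rose (6.25%): the mitochondrial pyruvate carrier Mpc1 had -0.78 (SE 0.11, adjusted p = 0.00054) and citrate synthase, Cs, -0.60 (SE 0.10, adjusted p = 0.0013), while the malate dehydrogenase Mdh2 had 0.57 (SE 0.13, adjusted p = 0.0076). Of 20 other tested HIF pathway genes and targets, 6 fell (30%) and 3 rose (15%), among them Ddit4, an mTORC1 inhibitor, with -1.88 (SE 0.20, adjusted p = 8.9e-05), and Mxi1, a MYC antagonist, with -1.54 (SE 0.10, adjusted p = 6.3e-06). With inhibitor in both genotypes, 1 of the 16 genes of pyruvate use and the TCA cycle was lower in LCH and 1 higher. The sugar entry list then had 0 lower and 2 higher, the pentose phosphate list 2 and 1, and the HIF list 4 and 2. Of all genes, 11.1% were lower and 9.27% higher there.

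The second question was what the inhibitor did within each genotype. In LCH total RNA, Slc2a1 alone of the 36 genes passed the test, when pools were not taken into account; 0.740% of all genes did. It went from 157, 183 and 164 CPM without inhibitor to 100.2, 117 and 100.4 with it, lower in 3 of 3 pools (log2 fold change -0.67, SE 0.12, adjusted p = 0.032), and this call was lost without any 1 of the 6 libraries. In WT it went from 80.9, 96.3 and 97.3 to 73.02, 98.4 and 89.5 CPM (log2 fold change -0.07, SE 0.12, adjusted p = 0.85), and no gene of the set passed there by edgeR (10 at an unadjusted p under 0.05, none by DESeq2; 0.710% of all genes passed).

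Libraries of 1 pool deviated together, as did LCH pools E and F with each other. The inhibitor comparisons were therefore also fitted with the pool as a block. With the block, 11 of the 36 genes passed in LCH, 9 lower and 2 higher, where 17.2% of all genes did; in WT 14 passed, 10 lower and 4 higher, where 21.7% of all genes did. In LCH the lower genes were Slc2a1, Slc2a3, Hk1, Hk2, Pfkp, Pgam1, Eno1, Hif1a and Egln3, and the higher ones Pfkfb3 and Eno2. In WT the lower genes were Aldoc, Tpi1, Pgk1, Pgam1, Eno1, Ldha, Ldhb, Pdk3, Hif1a and Bnip3l, and the higher ones Pfkl, Eno2, Egln3 and Vegfa. Pgam1, Eno1 and Hif1a thus fell and Eno2 rose in both genotypes, and Egln3 was called in opposite directions.

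In LCH with the block, Slc2a1 had a log2 change of -0.67 ± 0.06 SE (adjusted p = 1.1e-07). Slc2a3 went from 16.2, 8.54 and 8.87 to 5.19, 5.57 and 4.75 CPM, with a log2 change of -1.07 ± 0.18 SE (adjusted p = 0.0012). Hk2 went from 275, 261 and 319 to 200.3, 196 and 245 CPM, with a log2 change of -0.42 ± 0.05 SE (adjusted p = 1.3e-05). These genes of glucose uptake and capture were lower with inhibitor in each of the 3 pools. Pfkp went from 433, 407 and 511 to 334, 332 and 399 CPM, with a log2 change of -0.34 ± 0.05 SE (adjusted p = 1e-04), and Hif1a from 263, 255 and 265 to 217, 199 and 204, with a log2 change of -0.34 ± 0.05 SE (adjusted p = 0.00012). Slc2a1, Slc2a3, Hk2, Pfkp, Pgam1 and Hif1a passed whichever pool was left out. The rises of Pfkfb3 and Eno2 and the falls of Eno1 and Egln3 were no longer called without pool G, nor were those of Hk1 and Eno1 without pool E; without pool G, 7 genes passed, all lower.

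In WT with the block, Vegfa went from 12.9, 10.01 and 12.8 to 20.7, 17.4 and 17.99 CPM, with a log2 change of 0.65 ± 0.09 SE (adjusted p = 8.3e-05). Egln3 went from 4.37, 4.89 and 6.93 to 8.77, 8.16 and 10.4 CPM, with a log2 change of 0.77 ± 0.15 SE (adjusted p = 0.0014). Both were higher with inhibitor in all 3 pools. Ldhb went the other way, from 11.02, 21.2 and 19.9 to 7.59, 13.9 and 10.99 CPM, with a log2 change of -0.67 ± 0.12 SE (adjusted p = 0.00089), and Pgam1 from 349, 486 and 432 to 274, 387 and 333, with a log2 change of -0.35 ± 0.05 SE (adjusted p = 0.00012). Pgam1, Ldhb, Hif1a, Egln3, Vegfa and Bnip3l passed whichever pool was left out, and 7 genes passed without pool BD or without pool C.

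**Figure D3:**
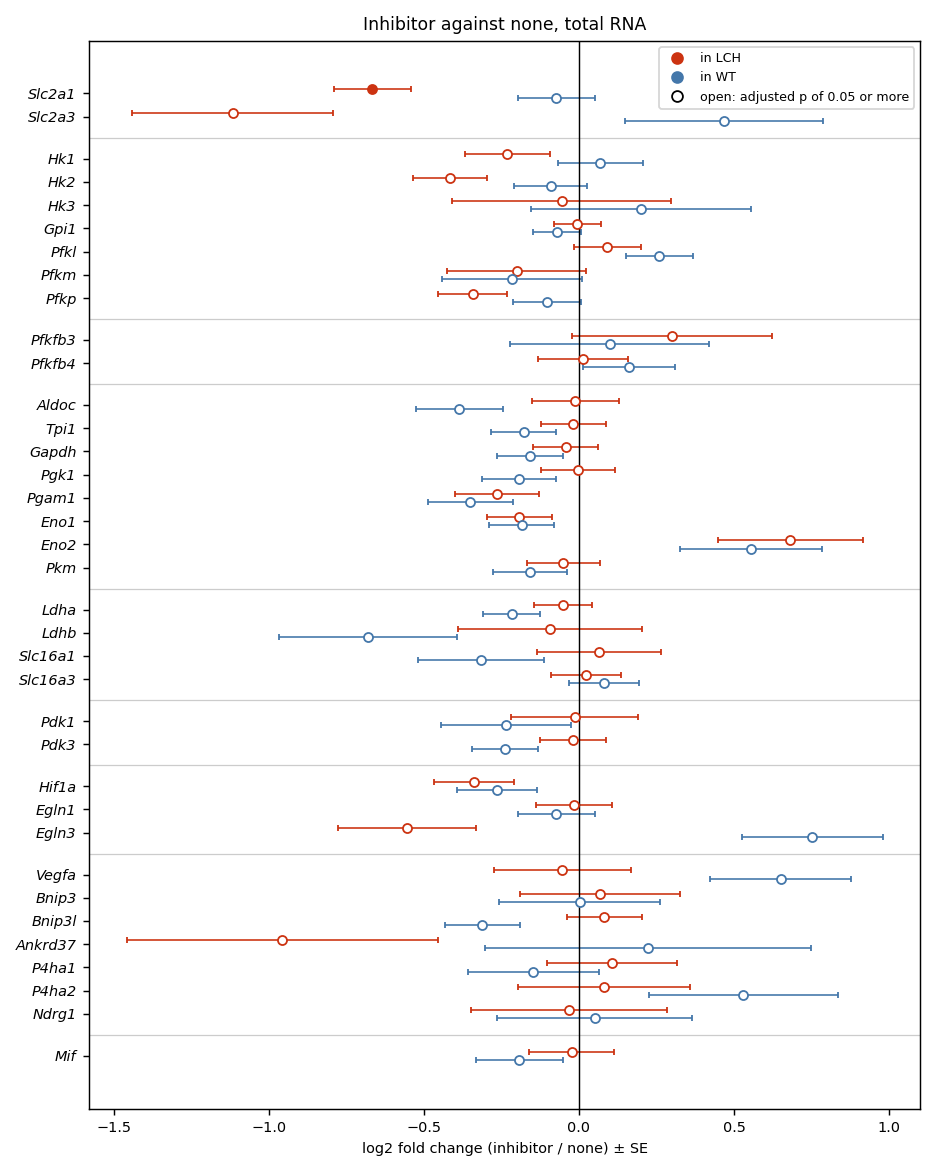
Log2 fold change (inhibitor over none) with its standard error for each of the 36 genes in total RNA, in LCH in red and in WT in blue, from the fit without the pool as a block. Slc2a1 in LCH is the only filled point (adjusted p under 0.05). Egln3, Vegfa and Slc2a3 show the genotypes on opposite sides of 0, with Vegfa in LCH close to 0.

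The difference between the responses was tested as the interaction of genotype and inhibitor. No gene of the set passed by edgeR without the block (5 at an unadjusted p under 0.05, 3 passing by DESeq2), where 0.404% of all genes passed. With the block 10 passed, where 19.7% of all genes did. Both glucose transporters of the set and 3 of the 7 upper enzymes responded more negatively in LCH: the interaction was -0.59 ± 0.08 SE (adjusted p = 5.6e-05) for Slc2a1, -1.50 ± 0.25 SE (adjusted p = 0.0014) for Slc2a3, -0.30 ± 0.08 SE (adjusted p = 0.011) for Hk1, -0.33 ± 0.07 SE (adjusted p = 0.0045) for Hk2 and -0.24 ± 0.07 SE (adjusted p = 0.026) for Pfkp. Slc2a6, a transporter gene outside the set, had higher mean levels and did not share this pattern. It averaged 723 CPM without inhibitor and 783 with it in LCH, and 731 and 697 in WT. The other 4 upper enzymes did not pass, with values from -0.23 for Hk3 to 0.07 for Gpi1. Egln3 and Vegfa differed in the same sense, with -1.32 ± 0.21 SE (adjusted p = 0.00022) and -0.69 ± 0.12 SE (adjusted p = 0.00062), and Aldoc, Ldhb and Bnip3l in the opposite one, with 0.37 ± 0.12 SE (adjusted p = 0.044), 0.58 ± 0.19 SE (adjusted p = 0.036) and 0.39 ± 0.09 SE (adjusted p = 0.0038). The interactions of Slc2a1, Slc2a3, Hk2, Egln3, Vegfa and Bnip3l passed whichever of the 6 pools was left out, and the other 4 were each lost without at least 1 pool.

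With inhibitor in both genotypes, 8 of the 36 genes were higher in LCH and 5 lower, against 9.27% and 11.1% of all genes. Higher were Tpi1, Gapdh, Pgk1, Pkm, Ldha, Slc16a3, P4ha2 and Mif, and lower Slc2a3, Pfkp, Eno2, Ldhb and Ndrg1. This comparison and that without inhibitor use different libraries of the same pools, fitted together. A call in both states is therefore not an independent repeat, and pool stays confounded with genotype in each. Of the 8 genes of lower glycolysis, 4 were called higher and 1 lower with inhibitor, and Tpi1, Pgk1 and Pkm were called higher in both states. Tpi1 stood at 273, 272 and 287 CPM against 149.5, 176 and 184 (log2 fold change 0.71, SE 0.10, adjusted p = 0.00093), and Pgk1 at 589, 676 and 716 against 400.3, 435 and 452 (log2 fold change 0.62, SE 0.12, adjusted p = 0.0042). Mif stood at 93.6, 102 and 109 CPM against 51.9, 62.9 and 64.9 (log2 fold change 0.76, SE 0.14, adjusted p = 0.0032).

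Pkm, Slc16a3 and P4ha2 were also called higher in both inhibitor states, and Eno2, Ldhb and Ndrg1 lower in both. Other genes were called in 1 state only. Slc2a1 stood at 100.2, 117 and 100.4 CPM in LCH and 73.02, 98.4 and 89.5 in WT, still without overlap but short of the threshold (log2 fold change 0.28, SE 0.12, adjusted p = 0.13). Vegfa stood at 21.00, 24.1 and 32.6 CPM against 20.7, 17.4 and 17.99 (log2 fold change 0.47, SE 0.22, adjusted p = 0.16). Slc2a3 was lower in LCH in every library, at 5.19, 5.57 and 4.75 CPM against 8.10, 16.7 and 17.9 (log2 fold change -1.46, SE 0.33, adjusted p = 0.0096). Ldha passed here, at 669, 734 and 732 CPM against 537, 548 and 545 (log2 fold change 0.39, SE 0.09, adjusted p = 0.012), and so did Gapdh (log2 fold change 0.41, SE 0.11, adjusted p = 0.018); neither passed the interaction with or without the block. The number of called genes fell to 8 when LCH pool F was left out, with Gapdh, Ldha, Pkm, Slc16a3 and P4ha2 lost. Slc16a3 and P4ha2 kept their calls without only 1 of the 6 single libraries each (WT pool C and LCH pool E), and both were lost without pool G and on rlog values.

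Polysome RNA shows which mRNAs were carried by several ribosomes. The WT polysome libraries limit what it can say of genotype: 71.4 to 99.2% of their counts fell on 4 rRNA-type genes and 24065 to 1171449 counts lay outside them, so that 11 to 28 of the 36 genes had any count. LCH polysome libraries had 18 to 65.1% on those genes and counts for 34 to 36 of the 36.

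**Figure D4:**
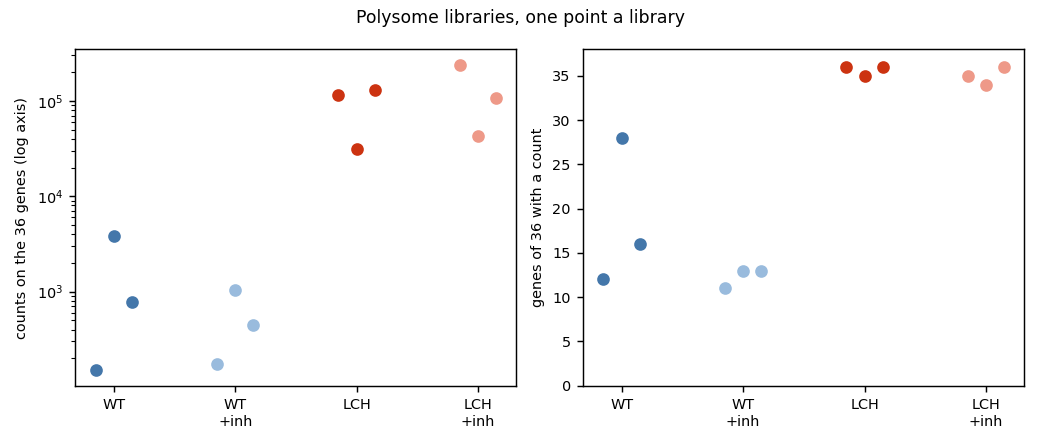
Counts on the 36 genes (left, log axis) and number of the 36 with a count (right) in each of the 12 polysome libraries, one point a library. WT libraries hold 149 to 3852 counts on these genes and 11 to 28 of them, LCH libraries 34 to 36 of them.

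In polysome RNA without inhibitor, 5 of 34 tested genes (14.7%) were higher in LCH and none lower, where 21.4% of all genes were higher and the median gene stood 1.62 higher on the log2 scale. Of these, Slc2a3, Ldhb and Bnip3 had no count in any WT polysome library and entered the test through LCH alone, which fixed their direction; the others were Pkm and Mif. Mif held 7203, 3399 and 7648 counts in pools E, F and G of LCH and 0, 149 and 13 in pools A, BD and C of WT (log2 fold change 4.14, SE 1.24, adjusted p = 0.034). Leaving out pool G, or dropping the filter on low counts, left no call.

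Within LCH, none of the 34 tested genes passed the inhibitor comparison in polysome RNA by edgeR, without or with the pool as a block. Without it, 2 had an unadjusted p under 0.05, none passed by DESeq2, and 0% of all genes passed by edgeR. Dusp6 did not pass there either (log2 fold change -1.92, SE 0.35, adjusted p = 0.26), so the test missed a gene called in total RNA. The value for Slc2a1 was -0.70 (SE 0.23) in polysome RNA (adjusted p = 1), beside -0.67 in total RNA.

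Loading was then compared within LCH, as the ratio of polysome to total RNA of the same culture, with GH polysome RNA assumed to match pool G. Ratios are relative, since both fractions were scaled to their own libraries; the median gene stood at -0.26 on the log2 scale without inhibitor. There 10 of the 36 genes were higher in polysome RNA and 3 lower, against 14.8% and 14.6% of all genes. The split was 8 and 8 when the 4 rRNA-type genes were removed before scaling, and 10 and 4 with DESeq2-type size factors. Enzymes and lactate exporters made up the higher genes (Gpi1, Pfkl, Tpi1, Gapdh, Pgk1, Pkm, Ldha, Slc16a1, Slc16a3) together with Mif. The lower genes were regulators and a secreted factor, Hif1a, Pfkfb3 and Vegfa. Enzymes of glycolysis and lactate formation without a call lay on both sides of the median gene. Hk1, Hk2, Hk3, Pfkp and Eno2 lay below it, at log2 ratios of -0.39, -0.40, -0.33, -0.32 and -1.18. Pfkm, Aldoc, Pgam1, Eno1 and Ldhb lay above it, at -0.17, 0.47, -0.04, 0.06 and 0.37.

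Mif stood out among the 36, with polysome to total ratios of 10.4, 14.7 and 10.2 in pools E, F and G and a log2 ratio of 3.54 (SE 0.24) (adjusted p = 9e-09); 98.9% of the 14816 genes tested had a lower ratio. Ldha had ratios of 2.77, 2.24 and 2.92 (log2 1.39, SE 0.20, adjusted p = 3e-05), Pgk1 of 2.62, 1.99 and 2.73 (log2 1.28, SE 0.20, adjusted p = 9.9e-05) and Tpi1 of 2.53, 1.64 and 2.60 (log2 1.15, SE 0.21, adjusted p = 0.00036). All 3 were above 1 in every culture. Slc16a3 had ratios of 2.27, 2.00 and 2.40 (log2 1.15, SE 0.20, adjusted p = 0.00019) and Pkm of 1.92, 1.47 and 2.04 (log2 0.84, SE 0.21, adjusted p = 0.0041). Mif, Ldha, Pgk1, Tpi1, Slc16a3 and Pfkl kept their calls when any 1 culture was left out; Gapdh, Gpi1, Pkm and Slc16a1 did not, and 8 genes passed without pool E. The log2 ratio of Slc16a1 was 0.76 (adjusted p = 0.38) without pool F.

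Hif1a was the least loaded of the 36. Its ratios were 0.271, 0.151 and 0.269, with a log2 ratio of -2.15 (SE 0.22) (adjusted p = 8.4e-07), and 7.61% of all genes tested had a lower one. Pfkfb3 had ratios of 0.527, 0.361 and 0.372 (log2 -1.27, SE 0.24, adjusted p = 0.00045) and Vegfa of 0.566, 0.567 and 0.552 (log2 -0.83, SE 0.28, adjusted p = 0.033). All 3 were below 1 in each culture; Hif1a and Pfkfb3 kept their calls without any 1 culture and Vegfa did not. The transporter Slc2a1, at 0.721, 0.610 and 0.768, did not pass (log2 -0.52, SE 0.20, adjusted p = 0.061).

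**Figure D5:**
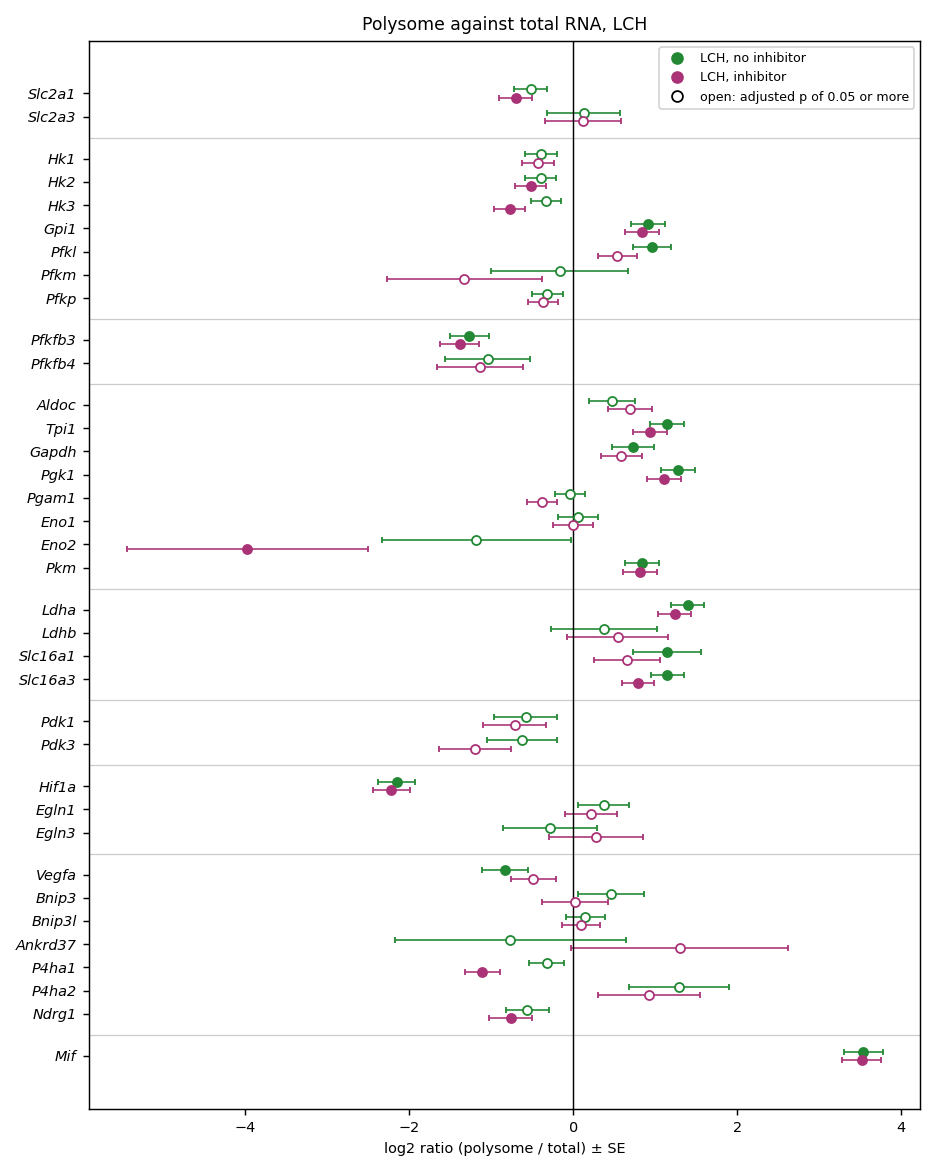
Log2 ratio of polysome to total RNA with its standard error for the 36 genes in LCH cells, without inhibitor in green and with inhibitor in purple; filled points passed an adjusted p of 0.05. Mif lies farthest right at 3.54 and 3.52, and Hif1a is at -2.15 and -2.22.

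With inhibitor in LCH, 7 of the 36 genes were higher in polysome RNA and 8 lower, against 12.9% and 17.2% of all genes; the split was 10 and 5 with DESeq2-type size factors. Gpi1, Tpi1, Pgk1, Pkm, Ldha, Slc16a3 and Mif were again higher, and Hif1a and Pfkfb3 again lower. Mif had ratios of 15.4, 12.7 and 7.61 and Hif1a of 0.284, 0.178 and 0.192. Further genes passed as lower, among them P4ha1 (log2 -1.11, SE 0.21, adjusted p = 0.00061), Hk3 (log2 -0.78, SE 0.18, adjusted p = 0.0032) and Slc2a1 (log2 -0.70, SE 0.20, adjusted p = 0.013), the last lost without pool F or pool G; Hk2 was also called, and its log2 ratio was -0.33 (adjusted p = 0.21) without pool G. Eno2 was called on 0, 0 and 19 polysome counts in pools E, F and G, so its ratio was not determined. No change of loading with the inhibitor passed among the 36 genes by edgeR (1 at an unadjusted p under 0.05, none by DESeq2), where 0% of all genes passed. For Mif the change was -0.02 (SE 0.30), and for Hif1a -0.07 (SE 0.31).

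In LCH without inhibitor, 62 genes of neighbouring pathways were tested for loading. Of them 14 were higher in polysome RNA and 13 lower (22.6% and 21%), against 14.8% and 14.6% of all genes. Of 8 pentose phosphate genes 3 were higher and 1 lower, and of 22 other HIF genes 5 were higher and 6 lower. Some neighbouring genes had larger ratios than most of the set. Higd1a, a mitochondrial HIF target, had a log2 ratio of 3.29 (SE 0.26, adjusted p = 4.6e-08), and the pentose phosphate genes Pgls, Tkt and Taldo1 had 2.89 (SE 0.26, adjusted p = 4.1e-07), 2.29 (SE 0.23, adjusted p = 6.3e-07) and 2.02 (SE 0.20, adjusted p = 3.6e-07), while G6pdx, the entry enzyme of that pathway, had -2.26 (SE 0.37, adjusted p = 0.001). Arnt, which encodes the partner subunit of HIF-1, had -1.75 (SE 0.31, adjusted p = 0.00027), on the same side as Hif1a.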

How the data were processed

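Total and polysome RNA were sequenced from 24 mouse libraries, 3 in each of 8 groups. The deposited raw counts, 1 value per gene model and library, were used for every main result; Salmon, DESeq2 and the build mm9 are named, without versions, in the submitters' processing notes. Per the file headers, the authors also deposited rlog tables on a log2 scale, used here as an alternative; their normalized counts were not used. Columns were assigned to groups by genotype, inhibitor and fraction in their names.

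Tests used edgeR 4.0.16 under R 4.3.3 on the counts (quasi-likelihood fits, robust dispersions, TMM scaling, filterByExpr with a minimum count of 10), two-sided, with Benjamini-Hochberg adjustment over all genes tested and calls under 0.05. The 4 groups of a fraction were fitted together, except the inhibitor comparison in polysome RNA (6 LCH libraries) and loading (12 LCH libraries, each culture as a block). P-values measure the spread between these samples, which may be technical. SE was derived from the test statistic. Counts for Rn18s, Lars2, mt-Rnr1 and mt-Rnr2, called rRNA-type here, stayed in the library sizes except in the alternative that removed them.

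The pool letter was taken to pair inhibitor states because same-pool deviations from the group means correlated in every pool: 0.52, 0.35 and 0.73 for E, F and G and 0.42, 0.37 and 0.11 for A, BD and C in total RNA, and 0.20, 0.24 and 0.39 in LCH polysome RNA. Different pools E and F of LCH total RNA also correlated, at 0.37 and 0.32, so pool F was not set apart from E. The other values between different pools ran from -0.62 to 0.06. Alternatives were DESeq2 1.42.0, its size factors, no filter, the compared groups alone, limma 3.58.1 on rlog values, the block, removal of rRNA-type genes, and single libraries left out; leaving out pool G, and each pool under the block, were added after seeing the data. The 36 genes, the lists of neighbouring pathway genes and the markers were chosen with earlier results of these data known. The 36 genes are all named, with neighbouring genes from the 4 smallest p of each list. Slc2a6 and Aldoa were named for their levels. Programs were tested on simulated data. anota2seq, which the series text names, was not run.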

Additional observations from a re-analysis of the deposited data

Results flagged for a closer look

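With the pool as a block, 10 of the 36 genes responded to the inhibitor differently in LCH and WT total RNA, by the test of the interaction (edgeR's quasi-likelihood test with Benjamini-Hochberg adjustment); 19.7% of all genes did. Each value below is the log2 response in LCH minus that in WT; without the block none of the 10 passed. The response was more negative in LCH by -0.59 for Slc2a1 (without the block -0.59, adjusted p = 0.21), -1.50 for Slc2a3 (without the block -1.58, adjusted p = 0.2), -0.30 for Hk1 (without the block -0.30, adjusted p = 0.57) and -0.33 for Hk2 (without the block -0.32, adjusted p = 0.48). It was more negative as well by -0.24 for Pfkp (without the block -0.24, adjusted p = 0.57), -1.32 for Egln3 (without the block -1.31, adjusted p = 0.13) and -0.69 for Vegfa (without the block -0.70, adjusted p = 0.41). It was more positive by 0.37 for Aldoc (without the block 0.37, adjusted p = 0.49), 0.58 for Ldhb (without the block 0.59, adjusted p = 0.61) and 0.39 for Bnip3l (without the block 0.39, adjusted p = 0.39). Slc2a1, Slc2a3, Hk2, Egln3, Vegfa and Bnip3l passed with any 1 of the 6 pools left out.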

How the results depend on the processing

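No call changed direction: of 62 calls of a gene in a comparison, 0 reversed under any alternative. The genotype comparisons in total RNA gave 13 to 20 called genes without inhibitor and 11 to 18 with it, and 11 to 12 and 8 to 13 with single libraries left out, the lowest without LCH pool F with inhibitor. The inhibitor comparison in LCH gave 3 genes by DESeq2, 2 without the filter, and 0 on rlog values, without pool G, or without any single library. With the replicate block it gave 11, and 9, 11 and 7 with pools E, F and G left out. In WT it gave 2 without the filter and 14 with the block, and 14, 7 and 7 with pools A, BD and C left out. The interaction gave 3 by DESeq2, 2 without the filter and 10 with the block, and 11, 7, 6, 8, 8 and 9 with pools A, BD, C, E, F and G left out. With the block fitted for the inhibitor in LCH polysome RNA, 0 of the 34 genes passed and 29 of all genes did. In polysome RNA, LCH against WT gave 2 with DESeq2-type size factors, 1 by DESeq2, 0 without the filter, 0 without pool G and 2 to 7 with single libraries left out. Loading without inhibitor gave 10 to 19, and 8 to 12 with single cultures left out, the lowest without pool E; without the culture as a block (no replicate block) it gave 11 without and 12 with inhibitor. DESeq2 gave 11 higher and 8 lower genes there, and no filter 9 and 10; with inhibitor, no filter gave 6 and 12. Shares of all genes are given above for the main fits and for the pool block with all pools, but not for the other alternatives. Counts under those are therefore of the 36 genes alone. The causes were not tested. Depth limits the WT polysome libraries, in which most of the 36 genes had too few counts for a level.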
